A study of Mus musculus with 778 samples.

Results

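The 10 genes examined here, Ccnb1, Ccnb2, Ccnb3, Cdk1, Cdc25b, Wee2, Pkmyt1, Fzr1, Mos and Fbxo43, encode the cyclin B-Cdk1 kinase of the oocyte and the proteins that switch it on or off. They were taken by name from a table of 23201 genes, and the rule uses no measured value. Their mRNA was followed by single-cell RNA-seq through 5 stages of oocyte growth in the mouse. The aim was to see when the messages of meiotic competence gain or lose share among all captured messages. All oocytes came from ovaries of wild type female ICR mice. Non-growing oocytes (NGO) were below 20 μm in diameter and came from mice 3 to 4 days old. Growing oocytes of 30 to 45 μm (GO1), 50 to 55 μm (GO2) and 60 to 65 μm (GO3) and fully-grown oocytes above 70 μm (FGO) came from mice 3 to 4 weeks old. The size of the oocyte and the age of the mouse therefore cannot be told apart in any comparison with NGO.

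A grown oocyte waits in prophase of the first meiotic division, and it resumes meiosis when Cdk1, bound to a B-type cyclin, becomes active. Wee2 and Pkmyt1 hold Cdk1 inactive by phosphorylating a threonine and the tyrosine beside it, and Cdc25b removes these phosphates. Before resumption the anaphase-promoting complex, a ubiquitin ligase, is directed by Fzr1 (Cdh1) to degrade B-type cyclins, and after the first division Mos and Fbxo43 (Emi2) keep the egg at metaphase until fertilization. Small growing oocytes taken from their follicle do not resume meiosis, and larger ones do.

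The phosphorylated pair of residues is shown because 3 of the 10 proteins, Wee2, Pkmyt1 and Cdc25b, act on it. The sequence holds codons 9 to 20 of the Cdk1 coding sequence, with the threonine codon 14 and the tyrosine codon 15 in capitals. In the NCBIM37 build it lies on the minus strand within chr10:68808957-68812856, where an intron interrupts it.
Cdk1: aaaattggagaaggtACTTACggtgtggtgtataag

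The labels describe the RNA as polyA RNA, so the annotated 3′ ends of 3 genes are shown too, 30 bases each ending with the poly(A) signal in capitals. The Wee2 window also holds, in capitals, the letters of a cytoplasmic polyadenylation element, a sequence by which stored maternal mRNAs are known to have their tails lengthened. They lie at chr13:101548623-101548652 (minus strand, Ccnb1), chr6:40416763-40416792 (plus strand, Wee2) and chr4:3797820-3797849 (minus strand, Mos) of NCBIM37.
Ccnb1: gcaatatggagactttatgttgctAATAAA
Wee2: cataTTTTAATccagatcattgtaAATAAA
Mos: taccactagggcatatttttaggaAATAAA

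The last 100 bases of the annotated 3′ UTR were searched on the sense strand for the signals AATAAA and ATTAAA and for the elements TTTTAT and TTTTAAT, with overlapping matches allowed. A signal was present in 8 of the 10 genes and an element in 2, Ccnb3 and Wee2. Among 17969 protein-coding genes with a 3′ UTR of this length, 78.3% held a signal, 17.6% an element and 14.3% both. The search describes these letters in 1 annotated transcript per gene and shows no site in use.

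The count table held 223 of the 296 cells named by the submitters, namely 46 NGO cells, 51, 26 and 44 cells of GO1, GO2 and GO3, and 56 FGO cells. Each count is a number of unique molecular identifiers (UMIs), tags that let every captured cDNA molecule be counted once. Values are given as counts per 1000000 UMIs (CPM), a share of the UMIs that does not follow the total RNA of the oocyte. The paper reports a higher relative mRNA abundance in GO1 than in NGO. A lower CPM in GO1 therefore need not mean fewer copies per oocyte. Summed UMIs ranged from 24976634 (GO2) to 64311908 (FGO) per stage. Depth was uneven, with a median of 110146 UMIs per cell in GO1 and of 540432 to 972294 in the other stages, and the 10 deepest cells held 80.4% of the UMIs of GO1, 73.2% of GO2 and 42.6% to 49.7% of the other stages. For this reason results are given for sums over all cells of a stage and, where it matters, as the mean over cells or without the 10 deepest cells. The cells came from 4 libraries that drew on overlapping sets of barcodes, and the names of the cells give no library, so a stage is 1 pooled sample without replicates and no test between stages was made. Intervals are exact 95% intervals that cover counting error only. The size rule called a gene where 2 stages differed by 2-fold or more in summed CPM and the larger value was 10 CPM or more.

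The cells had the markers of oocytes. All 12 oocyte markers stood between 33.8 and 11226 CPM in every stage, and Gdf9 had 4755 to 5681 CPM. The 11 granulosa markers summed to 15.99 CPM in NGO and to 20.8 to 44.6 CPM in the other stages, with Amh at 0.112 CPM or less and Cyp19a1 the highest of them (16.3 CPM in GO1). The 7 stromal and theca markers summed to 8.06 CPM in NGO and to at most 0.721 CPM in the other stages. Of the 6 blood and endothelial markers, Hba-a1 and Hbb-b1 had 0 UMIs in every stage, which allows up to 0.120 CPM, while Pecam1 had 4.60 CPM in NGO and up to 48.8 CPM in GO3. The part of other cells in the results was not tested.

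Ccnb1 encodes cyclin B1, the partner that carries Cdk1 into M phase (chromosome 13, 101548605 to 101556525, minus strand). The summed level went from 459 CPM in NGO to 1374 in GO1, was highest in GO2 with 1635 CPM, and was 1512 CPM in GO3 and 1141 CPM in FGO. Single NGO cells ran from 208 through a median of 425 to 680 CPM, and GO2 cells from 968 through 1485 to 2287 CPM. The lowest GO2 cell thus lay above the highest NGO cell. GO1 cells lay between, from 169 through 657 to 1959 CPM, and 22 of the 51 were above every NGO cell. FGO cells spread widely again, from 112.8 through 834 to 1614 CPM.

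Ccnb1 was 2.99-fold higher in GO1 than in NGO in the sums (95% counting interval 2.93 to 3.06), which passed the size rule. As a mean over cells it was 436 CPM in NGO and 735 CPM in GO1, 1.69-fold, and without the 10 deepest cells 1.68-fold, and neither passed. The 10 deepest GO1 cells had a median of 1192 CPM and the other 41 cells one of 585 CPM, so the call at this step rested on the deep cells. The mean over cells in GO2, 1518 CPM, was close to the sum and 2.07-fold above the mean of GO1, which passed the rule. In the sums GO2 was 1.19-fold above GO1, and without the 10 deepest cells 1.99-fold. From GO3 to FGO the sum was 1.32-fold lower (1.31 to 1.34), short of the rule, and 15 of 56 FGO cells were below the lowest GO3 cell. FGO stayed 2.48-fold above NGO (2.44 to 2.53), a call that held in the mean over cells (2.04-fold) and was lost in cells thinned to 20000 UMIs (1.99-fold).

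Ccnb2 encodes cyclin B2, a second B-type partner of Cdk1 (chromosome 9, 70255496 to 70269361, minus strand). Sums stood at 270.4 CPM before growth (NGO), at 492, 611 and 600.2 CPM in the growing stages GO1 to GO3, and at 444 CPM in FGO. Single GO2 cells ran from 473 through 597 to 811 CPM and did not overlap the NGO cells, which ran from 169 through 261 to 427 CPM. The step from NGO to GO1 was 1.82-fold (1.77 to 1.87), below the rule in the sums, and 2.03-fold, past it, with TMM factors. With other weights of the cells it was smaller, 1.35-fold as a mean over cells, 1.44-fold without the 10 deepest cells and 1.23-fold in thinned cells. The 10 deepest GO1 cells had a median of 529 CPM and the others one of 323 CPM. From GO3 to FGO Ccnb2 was 1.35-fold lower (1.33 to 1.37), and 33 of 56 FGO cells lay below the lowest GO3 cell (426 CPM). The annotation also lists Ccnb2-ps on another chromosome, which has no row in the table. Whether reads of Ccnb2-ps were counted as Ccnb2 was not tested.

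Ccnb3 encodes cyclin B3, which oocytes need for anaphase of the first division (chromosome X, 6556778 to 6618745, minus strand). It was highest in GO1, with 29.3 CPM, against 9.01 CPM before growth, and GO2 had 25.9 CPM, GO3 16.3 CPM and FGO 5.26 CPM, from 227 to 811 UMIs per stage. With DESeq2 size factors the highest stage was GO2. It was the only one of the 10 genes called between any stages after NGO in the sums. GO1 stood 3.25-fold above NGO (2.80 to 3.78), and the ratio was 5.20 as a mean over cells. From GO3 to FGO the level fell 3.10-fold (2.72 to 3.53), and from GO1 to FGO 5.57-fold (4.90 to 6.35), or 9.22-fold as a mean over cells. GO1 cells ran from 0 through 30.5 to 332 CPM and FGO cells from 0 through 3.08 to 37.7 CPM, with 24 of 51 GO1 cells above every FGO cell. The highest GO1 values belonged to shallow cells, where 1 UMI is worth up to 44.9 CPM.

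**Figure D1:**
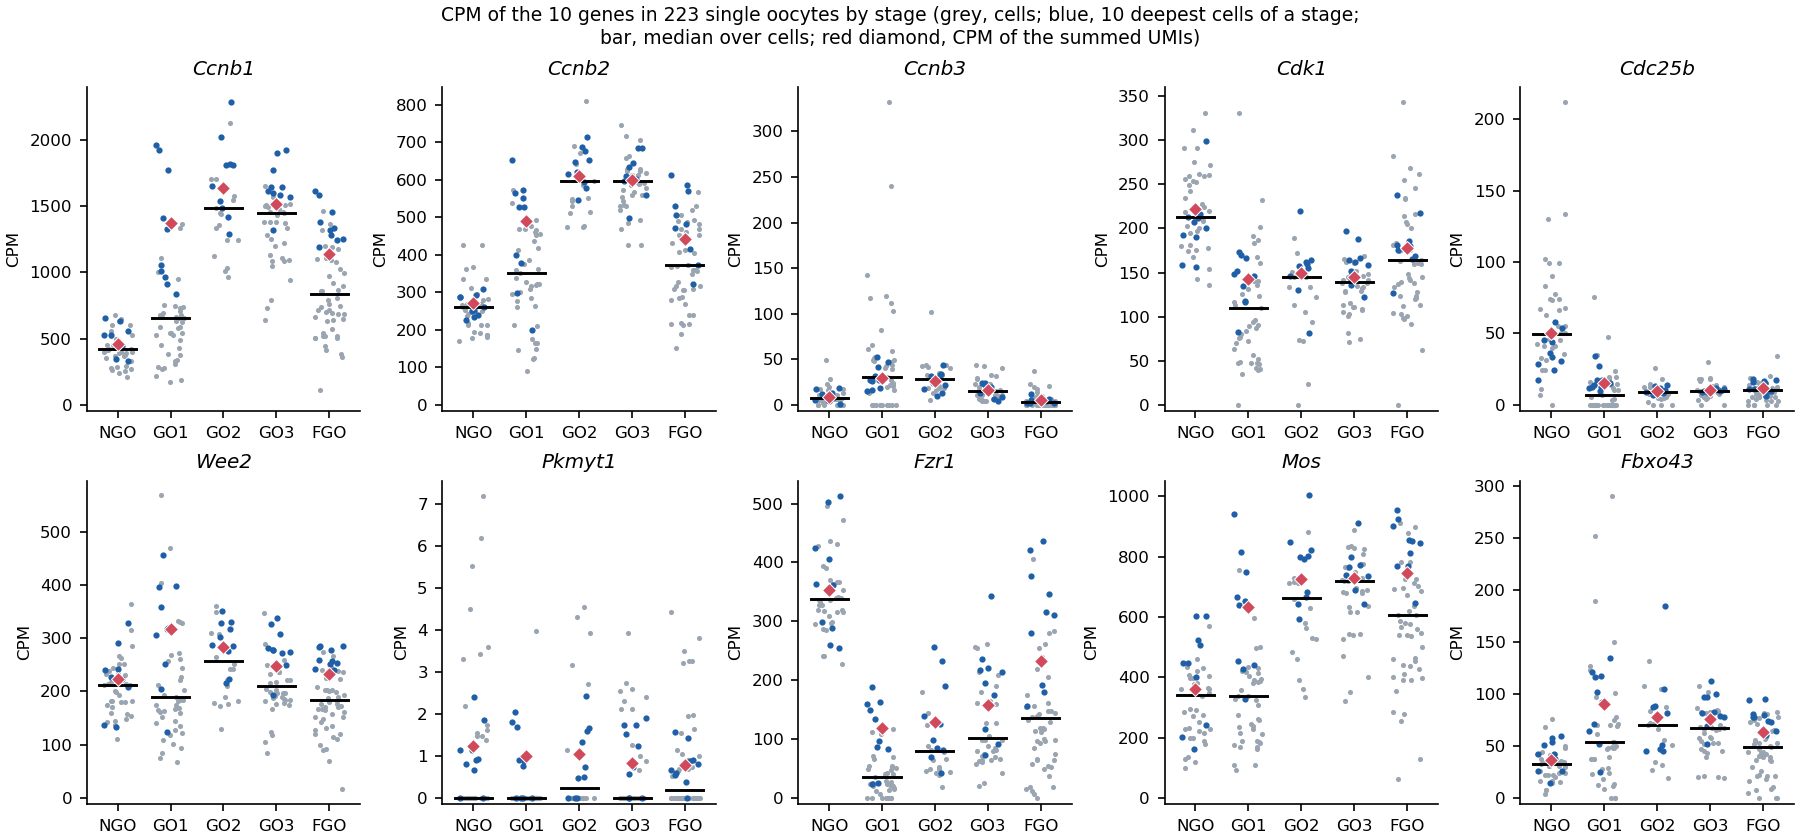
CPM of each gene (vertical axis, linear) in the 223 oocytes, by stage (horizontal axis). Grey points are cells, blue points the 10 deepest cells of a stage, black bars medians over cells and red diamonds the CPM of the summed UMIs. The Ccnb1 cells of GO2 lie above all NGO cells, the Fzr1 cells of GO1 lie below all NGO cells, and the diamonds of GO1 sit at the level of the deep cells.

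Cdk1, the kinase itself (chromosome 10, 68799383 to 68815686, minus strand), had no such rise in its share of the UMIs. Its sum was 222 CPM in NGO, lay at 142.2, 149.3 and 145.02 CPM in the growing stages GO1 to GO3, and was 178 CPM in FGO. NGO cells ran from 136.2 through 213 to 331 CPM and GO1 cells from 0 through 109.5 to 331 CPM, and 35 of 51 GO1 cells lay below every NGO cell. GO1 was 1.56-fold lower than NGO (1.498 to 1.63), which did not reach the rule, and 2.24-fold lower, past it, without the 10 deepest cells. The counting intervals of GO2 and GO3 and of GO3 and GO1 overlapped. FGO was 1.25-fold above GO1 (1.21 to 1.30).

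Cdc25b, the phosphatase that activates Cdk1 in oocytes (chromosome 2, 131012685 to 131024233, plus strand), was highest before growth. The sum was 50.7 CPM in NGO and 15.4 CPM in GO1, and GO2 (9.97 CPM), GO3 (10.5 CPM) and FGO (12.2 CPM) were lower still in the sums, from 249 to 1277 UMIs per stage. NGO cells ran from 0 through 49.6 to 212 CPM, and only 1 of 51 GO1 cells and 0 of 56 FGO cells were above the NGO median. It fell 3.29-fold from NGO to GO1 (2.94 to 3.69), 5.35-fold as a mean over cells and 6.98-fold without the deepest cells, and all passed the rule. FGO was 4.17-fold below NGO (3.81 to 4.56). From GO2 to FGO the sums lay within 9.97 to 12.2 CPM, where the intervals of GO3 overlapped those of both other stages. Without the 10 deepest cells the lowest stage was GO1 (8.60 CPM), and FGO was 1.26-fold above it, against 1.27-fold below it in the sums. Spef1 overlaps Cdc25b on the other strand, at 0.482 to 1.35 CPM, and the sources used here do not say that strand was counted.

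Wee2 encodes the oocyte kinase that phosphorylates the Cdk1 tyrosine (chromosome 6, 40392862 to 40416812, plus strand). Its summed level was 223 CPM before growth and 317 CPM in GO1, and then 284 CPM, 247 CPM and 232 CPM in GO2, GO3 and FGO. No step passed the rule. The highest stage was GO1 in the sums, 1.42-fold above NGO (1.37 to 1.47), but as a mean over cells GO2 was highest with 258 CPM, against 213 CPM in NGO, 225 in GO1, 221 in GO3 and 187 in FGO. Without the 10 deepest cells GO1 was 1.17-fold below NGO. The order of the Wee2 levels therefore depended on the weight of the deep cells.

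Pkmyt1 encodes the membrane-bound kinase that phosphorylates both residues (chromosome 17, 23863303 to 23873696, plus strand), and it was barely captured. It had 31, 27, 26, 42 and 50 UMIs in NGO, GO1, GO2, GO3 and FGO, 0.777 to 1.23 CPM, and it reached 10 CPM in no stage. The counting intervals of all neighbours in the order of levels overlapped. FGO was 1.58-fold below NGO with an interval of 0.977 to 2.53 for the fold, so no difference was detectable at this depth in the sums. In GO1, 96.3% of its UMIs came from the 10 deepest cells and a UMI was seen in 7 of 51 cells, and the step from NGO, 1.22-fold lower in the sums, was 5.06-fold lower as a mean over cells. Paqr4, which overlaps it on the other strand, had 8.11 to 15.9 CPM.

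Fzr1 encodes Cdh1, through which the anaphase-promoting complex holds down cyclin B in the arrested oocyte (chromosome 10, 80828967 to 80841261, minus strand). NGO had 353 CPM in the sums, GO1 119.1 CPM, GO2 129.9 CPM, GO3 158.5 CPM and FGO 232 CPM. NGO cells ran from 227 through 338 to 514 CPM and GO1 cells from 0 through 35.05 to 189 CPM, with no overlap between the stages. It fell 2.97-fold from NGO to GO1 in the sums (2.85 to 3.09), 6.85-fold as a mean over cells and 8.53-fold without the deepest cells. Later the sums were higher at each step, and the median over cells was 79.99 CPM in GO2, 102.1 CPM in GO3 and 135.6 CPM in FGO. FGO was 1.95-fold above GO1 (1.88 to 2.03), just short of the rule, and 3.05-fold as a mean over cells and 3.84-fold without the deepest cells, which passed it. The 10 deepest cells had a median of 115.3 CPM in GO1 and 314 CPM in FGO, against 25.2 and 114.98 CPM in the other cells of the same stages. Against NGO, FGO was 1.52-fold lower in the sums and 2.24-fold lower, past the rule, as a mean over cells. F630110N24Rik overlaps Fzr1 on the other strand and has no row in the table.

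Mos, the kinase that starts the MAP kinase branch of metaphase arrest (chromosome 4, 3797804 to 3799252, minus strand), had its lowest summed level in NGO. That level was 360.0 CPM, against 634 CPM in GO1 and 725, 730.3 and 747 CPM in the later stages in order of size. The NGO cells ran from 98.2 through 343 to 603 CPM, the GO1 cells from 94.2 through 339 to 941 CPM and the FGO cells from 62.7 through 605 to 955 CPM. By the median cell, GO1 was thus level with NGO and GO2 (664 CPM) was not. In sums GO1 stood 1.76-fold above NGO (1.72 to 1.81), but 1.13-fold as a mean over cells. FGO was called, at 2.08-fold above NGO (2.03 to 2.12), with 29 of 56 FGO cells above the highest NGO cell. The mean over cells (1.85-fold) and thinned cells (1.68-fold) did not reach the rule, and with TMM factors or DESeq2 size factors the highest stage was GO2.

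Fbxo43 encodes Emi2, an inhibitor of the anaphase-promoting complex in the egg (chromosome 15, 36079815 to 36094639, minus strand). Its summed level was 36.6 CPM before growth and highest in GO1 with 90.5 CPM, and GO2 had 77.8 CPM, GO3 75.7 CPM and FGO 63.9 CPM. Without the deepest cells GO2 was highest (74.6 CPM, against 59.6 CPM in GO1), as it was in the mean over cells and in thinned cells. NGO cells ran from 4.12 through 32.6 to 75.6 CPM and GO2 cells from 19.7 through 70.6 to 185 CPM, and the stages overlapped. GO1 was 2.48-fold above NGO (2.29 to 2.68) and 2.15-fold as a mean over cells, which passed the rule, and 1.88-fold without the deepest cells, which did not. FGO was 1.42-fold below GO1 (1.35 to 1.49) and 1.75-fold above NGO (1.63 to 1.88). In thinned cells, with about 1 UMI per cell (0.783 in NGO, 0.75 in FGO), FGO was 1.04-fold below NGO and 2.20-fold below GO1, a level too low to read a change from.

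**Figure D2:**
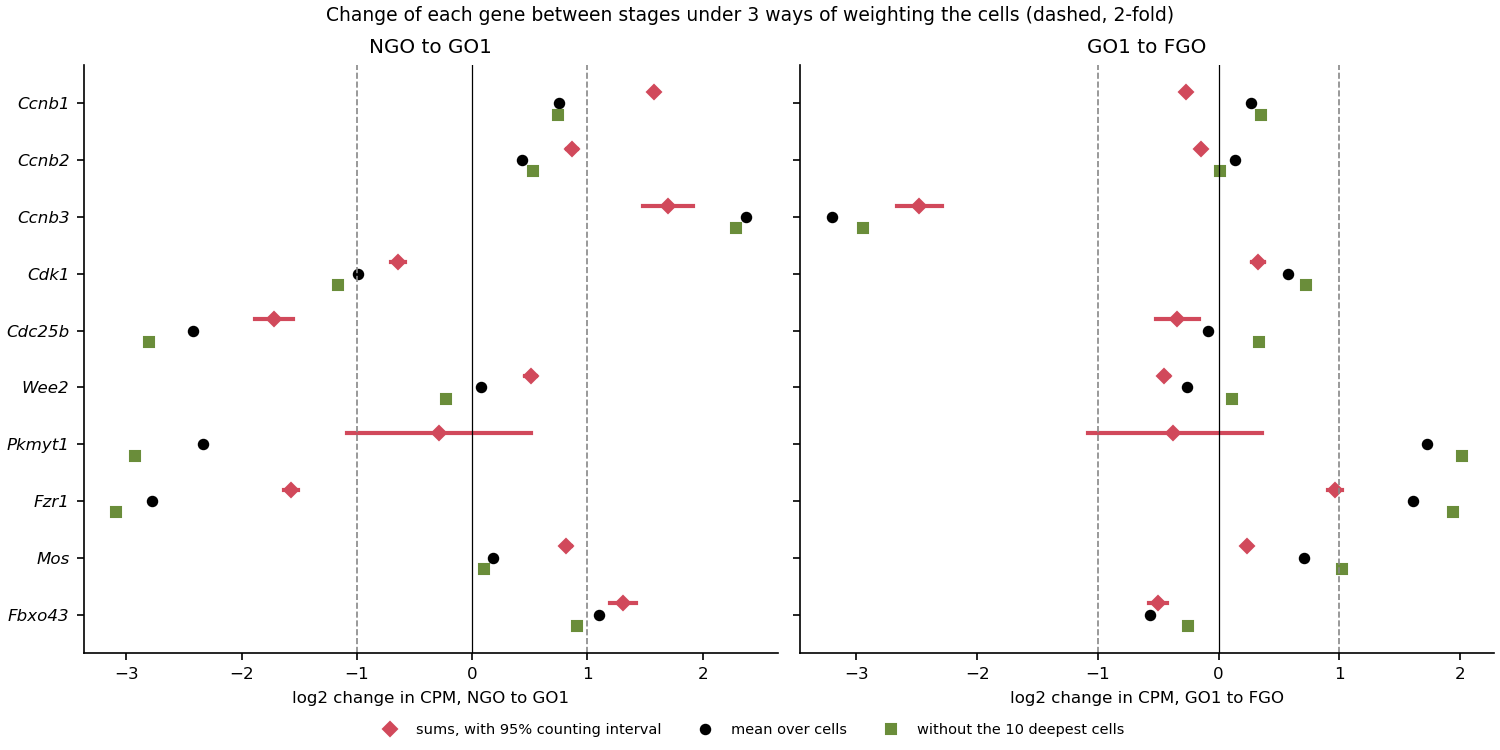
Change of each gene in log2 CPM (horizontal axis) from NGO to GO1 (left) and from GO1 to FGO (right). Red diamonds are sums with their 95% counting interval, black points means over cells, green squares sums that leave out the 10 deepest cells per stage and dashed lines 2-fold. Cdc25b and Fzr1 lie beyond 2-fold lower and Ccnb3 beyond 2-fold higher on the left under all 3, while Ccnb1 does so in the sums alone.

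By the size rule, 5 of the 9 genes that reached 10 CPM in either stage were called from NGO to GO1, with Ccnb1, Ccnb3 and Fbxo43 higher and Cdc25b and Fzr1 lower. Over all 8527 genes reaching 10 CPM there, 20.6% were called higher and 25.7% lower. The median log2 change in the sums was 0.82 over the 9 genes and -0.15 over all genes. The 0.82 rested on the deep cells, since the median of the same genes was 0.18 as a mean over cells (-0.37 over all genes) and 0.10 without the 10 deepest cells (-0.44 over all genes). Without the 10 deepest cells of each stage the count was 4, Ccnb3 higher and Cdc25b, Fzr1 and Cdk1 lower, where 21.6% of all genes were called higher and 37.6% lower. In the sums this was the largest step between neighbouring stages for 9 of the 10 genes. As a mean over cells it was so for 6, and Ccnb1, Ccnb2 and Mos had their largest step from GO1 to GO2 and Wee2 from GO3 to FGO. The share of all genes with their largest step from NGO to GO1 was not computed. In the sums 46.3% of all genes were called in either direction at that step, and 3.14%, 4.35% and 5.96% at the steps to GO2, GO3 and FGO.

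From GO1 to GO2 none of the 9 genes was called in the sums, where 0.109% of 7356 genes were called higher and 3.03% lower. As a mean over cells the count was 1, Ccnb1 higher, where 4.16% of all genes were called higher and 12.3% lower. Without the 10 deepest cells the count was 1, Fzr1 higher, where 9.43% of all genes were called higher and 8.24% lower. From GO2 to GO3 none was called, where 3.34% of 7334 genes were called higher and 1.01% lower. Over all genes the split of this step moved with the scaling, with 245 genes higher and 74 lower by totals, 174 and 120 with DESeq2 size factors and 200 and 100 with TMM factors. From GO1 to GO2 the split was 8 higher and 223 lower by totals and 14 and 83 with DESeq2 size factors.

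From GO3 to FGO, Ccnb3 was the only gene called, lower, where 2.41% of 7622 genes were called higher and 3.54% lower. From GO1 to FGO it was again the only one, where 7.98% of 7873 genes were called higher and 9.03% lower. As a mean over cells Fzr1 was called higher as well, where 17% of all genes were called higher and 15.6% lower. Without the deepest cells Fzr1 and Mos were called higher as well, where the shares were 22.3% and 13%. From NGO to FGO, 3 of the 8 genes reaching 10 CPM were called, with Ccnb1 and Mos higher and Cdc25b lower, where 11.3% of 8132 genes were called higher and 16% lower. In that comparison 920 genes were higher and 1302 lower by totals, and 1204 and 916 with TMM factors.

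Ratios of UMIs of 2 genes in the same cells do not depend on the stage total, and their change between stages is given here, not the level of 1 gene against another. Ccnb1 over Cdk1 was 2.07 before growth, 9.67, 10.95 and 10.4 in the growing stages GO1 to GO3, and 6.40 in FGO. It was 4.67 times higher in GO1 than in NGO (4.46 to 4.89, interval on the log scale from the counts), and the median over cells with both genes was 4.08 times higher. The ratio was then 0.614 times that of GO3 in FGO (0.596 to 0.634). Ccnb2 over Cdk1 followed a similar course, with 1.22, 3.46, 4.09, 4.14 and 2.49 from NGO to FGO, and it was 2.84 times higher in GO1 than in NGO (2.70 to 2.99). For both cyclins the share relative to Cdk1 was thus raised in the sums and in the median cell alike, where Ccnb2 over Cdk1 was 2.92 times higher in the median cell.

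Relative to Fzr1, the change was wider. Ccnb1 over Fzr1 was 1.30 before growth, 11.5, 12.6 and 9.54 in GO1, GO2 and GO3, and 4.91 in FGO, an 8.88 times higher value in GO1 than in NGO (8.48 to 9.29). The median over cells with both genes was 1.23 in NGO, 13 in GO1 (43 of 51 cells) and 20.9 in GO2. For GO3 and FGO it was 12.1 and 6.64. Fbxo43 over Fzr1 was 0.103, 0.760, 0.599, 0.477 and 0.275 in the order of stages, 7.35 times higher in GO1 than in NGO (6.74 to 8.01) and 0.362 times as high in FGO as in GO1 (0.339 to 0.385). Both ratios were thus highest in GO1 or GO2 and lower in FGO.

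Between the enzymes that remove and add the inhibitory phosphates, Cdc25b over Wee2 was 0.227 before growth, 0.0486, 0.0351 and 0.0423 in GO1 to GO3, and 0.0524 in FGO. In GO1 it was 0.214 times the value of NGO (0.190 to 0.240). The ratio in FGO was 1.24 times that of GO3 (1.11 to 1.39), and against GO1 the interval, 0.955 to 1.22, included no change. Cdc25b over Pkmyt1 was 0.370 times as high in GO1 as in NGO (0.219 to 0.628), from the few Pkmyt1 UMIs. Wee2 over Pkmyt1 was 1.73 times higher in GO1 than in NGO (1.03 to 2.90).

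Mos over Ccnb1 was 0.784 before growth, 0.462, 0.443 and 0.483 in GO1 to GO3, and 0.655 in FGO, and it was 1.36 times higher in FGO than in GO3 (1.33 to 1.38). Ccnb1 was lower in FGO than in GO3, and Mos was 1.02-fold higher in the sums but 1.14-fold lower as a mean over cells and 1.02-fold lower with either scaling factor. Ccnb1 over Ccnb2 was 1.65 times higher in GO1 than in NGO in the sums (1.59 to 1.71), but 1.02 times by the median cell. Between GO3 and FGO it was 1.02 times as high (1.002 to 1.04). Ccnb3 over Cdk1 was 0.263 times as high in FGO as in GO3 (0.231 to 0.299), and 5.07 times higher in GO1 than in NGO (4.35 to 5.91). By the median over cells with both genes it was 13.3 times higher in GO1 than in NGO. That median covers 40 of 51 GO1 cells and 38 of 46 NGO cells. It leaves out the cells without a Ccnb3 UMI, and what this adds to the 13.3 was not tested.

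**Figure D3:**
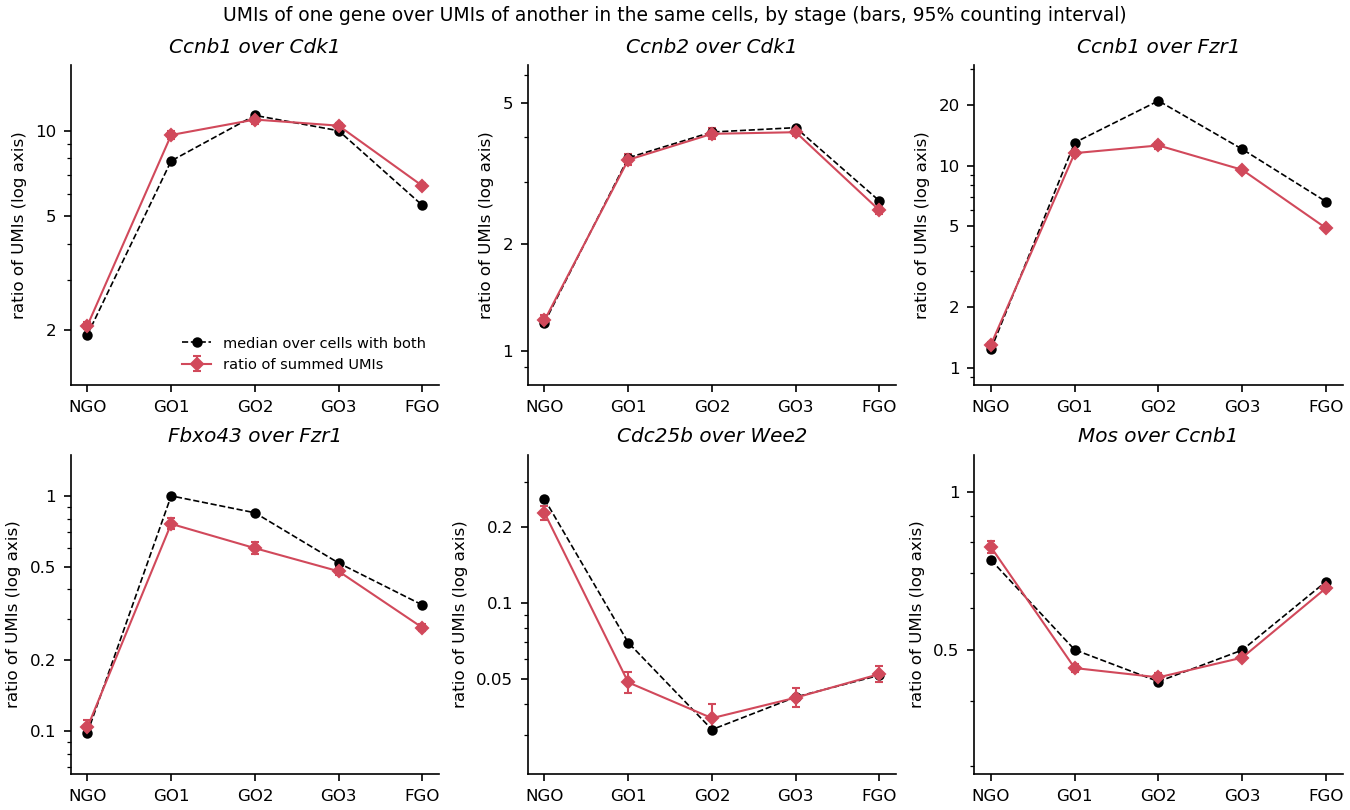
UMIs of the first gene over UMIs of the second (vertical axis, log scale) by stage, for 6 of the 10 pairs. Red diamonds are ratios of summed UMIs with 95% counting intervals, and black points the median over cells with both genes. Ccnb1 over Cdk1 goes from 2.07 in NGO to 10.95 in GO2 and 6.40 in FGO, and Cdc25b over Wee2 from 0.227 in NGO to 0.0351 in GO2.

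Cells of a stage differed by more than the sampling of UMIs in several cases, which includes any difference in level that goes with depth. With every cell thinned to 20000 UMIs, which left out no cell, the variance of the Ccnb1 count over its mean was 1.19 before growth, 5.28, 2.48 and 2.35 in GO1 to GO3, and 3.58 in FGO, where sampling alone gives about 1. Fzr1 had 1.02 in NGO, 1.07, 1.85 and 1.27 in GO1 to GO3, and 2.28 in FGO. In GO1 its thinned mean was 0.863 UMIs per cell, a level at which sampling hides much of the spread. Mos had 1.85 in NGO, 2.77 in GO1 and 2.21 in FGO. Cdk1 stayed between 1.02 and 1.80 in all stages. NGO cells were thus close to sampling for Ccnb1, Ccnb2 (1.06) and Fzr1 but less so for Mos.

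In several stages the CPM of a gene moved with the depth of the cell. For Ccnb1 the Spearman correlation across cells was 0.32 in NGO (46 cells), 0.65 in GO1 (51 cells), 0.76 in GO3 (44 cells) and 0.76 in FGO (56 cells). For Wee2 in FGO it was 0.84 and for Mos in FGO 0.81, while for Ccnb3 in GO1 it was 0.01. The points share libraries that the names do not give, and depth also divides each CPM. The library, the size of an oocyte within its stage and its depth cannot be told apart here.

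**Figure D4:**
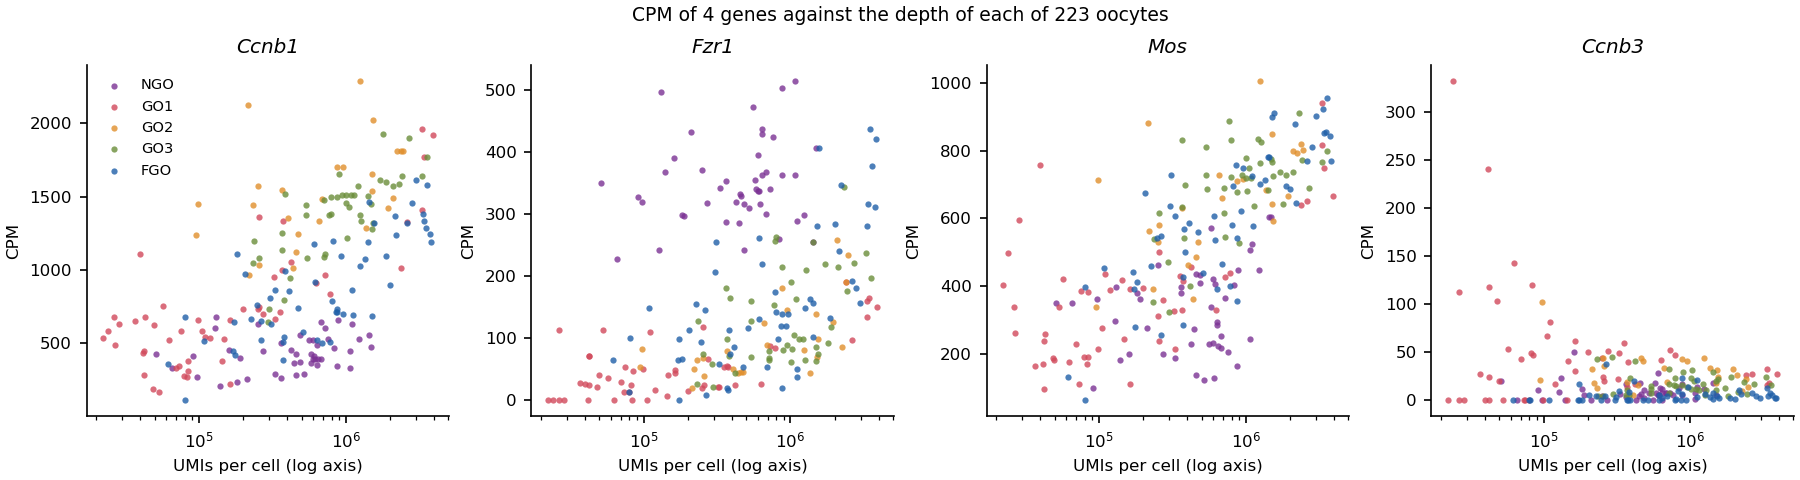
CPM of 4 genes (vertical axis, linear) against the UMIs of each of the 223 cells (horizontal axis, log scale), coloured by stage. In GO1 the cells above 1000000 UMIs include the highest value of Ccnb1 and of Mos, whereas the highest Ccnb3 values belong to cells with few UMIs. All NGO cells of Fzr1 lie above all GO1 cells. NGO cells have 51400 to 1482980 UMIs and GO1 cells 22279 to 3898137, so some GO1 depths hold no NGO cell to compare.

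Each of the 10 genes was matched with the 3 genes, of 8671 with at least 10 CPM in any stage, whose log2(CPM + 1) over the 5 stages ran closest to it, by the root mean square (RMS) difference after centring. Only the sums were used, so the matches carry the weight of the deep cells in GO1 and GO2. Matches under another weight of the cells are not given here. The nearest to Ccnb1 were Macrod2 (RMS difference 0.03), Bcl2l10 (0.05) and Dclre1a (0.05), and 16 genes lay within 0.1. To Ccnb2 they were Brf2, Phospho2 and Dydc2, with 23 genes within 0.1. Ccnb3 had no gene within 0.1, and Cfap53 (0.13), Tnfsf13b (0.16) and Myom2 (0.16) were nearest.

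Cdk1 had 256 of the 8671 genes within 0.1, the nearest being Ftsj1, BC005624 and Nhp2. The difference is not scaled to the size of a gene's changes, so the numbers within 0.1 cannot be compared between genes. Wee2 was nearest to Mapre1, Rras2 and Nusap1, Fzr1 to 1110008P14Rik, Ncstn and Esd, Mos to Slc35b3, Cnot8 and Tbcc, and Fbxo43 to Cmc1, Rpl39l and Crnkl1. For Cdc25b, 6 genes lay within 0.1, and the nearest were Wfdc15a and the ribosomal protein genes Rpl8 and Rpsa. Pkmyt1 was nearest to Zrsr2, Smarca2 and Gspt1, but at about 1 CPM the added 1 flattens its course. Among the 10 genes themselves the closest pair was Ccnb2 and Mos (0.18) and the farthest Ccnb1 and Cdc25b (1.48).

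To place these genes among their partners, 47 other genes of M phase were taken by name in 5 groups of function. From NGO to GO1, 18 of the 42 that reached 10 CPM were called, 10 higher and 8 lower, beside the 20.6% and 25.7% over all genes. When cells were averaged 19 were called, 8 higher and 11 lower, where 22.1% of all genes were called higher and 34.6% lower. The median log2 change in the sums was 0.17. In the next step, GO1 to GO2, none was called, and later Wee1 was called higher from GO2 to GO3 and Ube2c from GO3 to FGO. From GO1 to FGO 6 of 41 were called, 3 in each direction, near the 17% called in either direction over all genes. As a mean over cells 13 were called (9 higher, 4 lower), where the share over all genes was 32.6%, and without the deepest cells 15 (11 higher, 4 lower), where it was 35.4%. From NGO to FGO 8 of 42 were called, 4 in each direction, where 11.3% of all genes were called higher and 16% lower.

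Of the 8 other cyclins and Cdks with their assembly factors, 7 reached 10 CPM. In the sums only Cks1b, a small Cdk-binding subunit, was called from NGO to GO1, beside 46.3% of all genes in either direction. As a mean over cells Mnat1 was called higher as well. Without the 10 deepest cells Mnat1 and Cks1b were called higher and Ccna2 and Cdk2 lower, beside 59.2% of all genes. The summed level of Cks1b was 186 CPM before growth and 584 CPM in GO1, a log2 change of 1.65. From GO1 to FGO Cdk2 was called higher, from 21.3 to 43.6 CPM (log2 change 1.03). The other genes with the largest changes in that step were Cks2, 861 and 1313 CPM (0.61), and Cdk7, the kinase that phosphorylates the activation loop of Cdk1, with 4130 CPM in GO1 and 5220 CPM in FGO (0.34).

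Of the 5 other Cdk1 phosphatases and kinases, Cdc25a and Wee1 were called in opposite directions from NGO to GO1 and from GO1 to FGO in the sums. Over all genes 46.3% and 17% were called in either direction in these comparisons. In thinned cells Wee1 was not called from GO1 to FGO. Cdc25a, a phosphatase of the same family as Cdc25b, had 17.5 CPM in NGO, 47.99 in GO1 and 21.01 in FGO, with log2 changes of 1.46 from NGO to GO1 and -1.19 from GO1 to FGO. Wee1, the somatic relative of Wee2, had 40.7 CPM in NGO, 13.6 in GO1 and 28.2 in FGO, with log2 changes of -1.58 and 1.05. Cdc25c, the third phosphatase of the family, had 12.7 CPM in NGO, 9.91 in GO1 and 5.49 in FGO, and it was called lower from NGO to FGO. As a mean over cells and without the deepest cells Cdc25c was called lower from NGO to GO1 as well. Cdc14b, with 196 CPM in GO1 and 261 CPM in FGO (log2 change 0.42), was not called in the sums and was called higher as a mean over cells (1.18), and Cdc14a stayed below 10 CPM.

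In the group of other M-phase kinases and the Greatwall branch, which restrains the phosphatase that opposes Cdk1, all 9 genes reached 10 CPM and 5 were called from NGO to GO1. Over all genes 46.3% were called in either direction at that step. Mastl, which encodes Greatwall, went from 63.7 to 144.7 CPM (log2 change 1.19). Its substrate Arpp19 had 394 and 793 CPM (1.01), and the other substrate Ensa had 61.7 and 35.3 CPM (-0.81) without a call in the sums. Of the phosphatase subunits, Ppp2r2d (1.13) and Ppp2ca (1.60) were higher and Ppp2r2a (-1.05) was lower. When cells were averaged, Mastl (1.98-fold higher) and Ppp2r2d (1.54-fold higher) lost their calls, Arpp19 was 3.23-fold higher, and Ensa was 3.46-fold lower, past the rule. From GO1 to FGO only Ppp2ca was called, lower (-1.16), and Ensa (0.84) and Ppp2r2d (-0.44) had the next largest changes. Ensa was called higher in that step as a mean over cells (1.72). Plk1 had 194 CPM before growth and 347 CPM in GO1 in the sums, short of the rule, but as a mean over cells it was 1.65-fold lower in GO1, and without the deepest cells 2.38-fold lower, past the rule.

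In the anaphase-promoting complex, 17 of 18 genes reached 10 CPM and 9 were called from NGO to GO1, near the 46.3% called in either direction over all genes. Lower were the core subunits Anapc2 (log2 change -1.54), Anapc5 (-1.60), Anapc11 (-1.22) and Anapc13 (-1.07) and the ubiquitin-conjugating enzyme Ube2c (-1.94). Higher were the subunit Anapc1 (1.37), the activator Cdc20 (1.18), the ubiquitin-conjugating enzyme Ube2s (1.16) and Fbxo5 (1.21), which encodes the inhibitor Emi1. In the sums the activators Fzr1 and Cdc20 were thus called in opposite directions. As a mean over cells Cdc20 (1.47-fold higher), Ube2s and Anapc13 lost their calls, while Fbxo5 kept its own (2.19-fold higher). From GO1 to FGO only Ube2c was called, from 269.9 to 649 CPM (1.27), and Anapc1 (-0.95) and Cdc16 (0.64) followed in size, both called as a mean over cells (-1.52 and 1.08).

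Downstream of Mos, 5 of 7 genes reached 10 CPM. Map2k2, 1 of the 2 kinases that Mos phosphorylates, fell from 198 to 47.4 CPM (log2 change -2.06) between NGO and GO1, while Map2k1 had 252 and 188 CPM (-0.42) without a call in the sums and was called lower without the deepest cells (-1.36). From GO1 to FGO Rps6ka3 was called lower, from 20.6 to 7.71 CPM (-1.41), while Map2k2 (0.31) was not called in that step in the sums and was called higher without the deepest cells (1.09). Mapk3 had 230.4 CPM in GO1 and was not called in any of the 6 comparisons in the sums, but without the deepest cells it was 2.12-fold lower in GO1 than in NGO, past the rule. Rps6ka1 and Rps6ka2 stayed below 10 CPM in every stage.

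**Figure D5:**
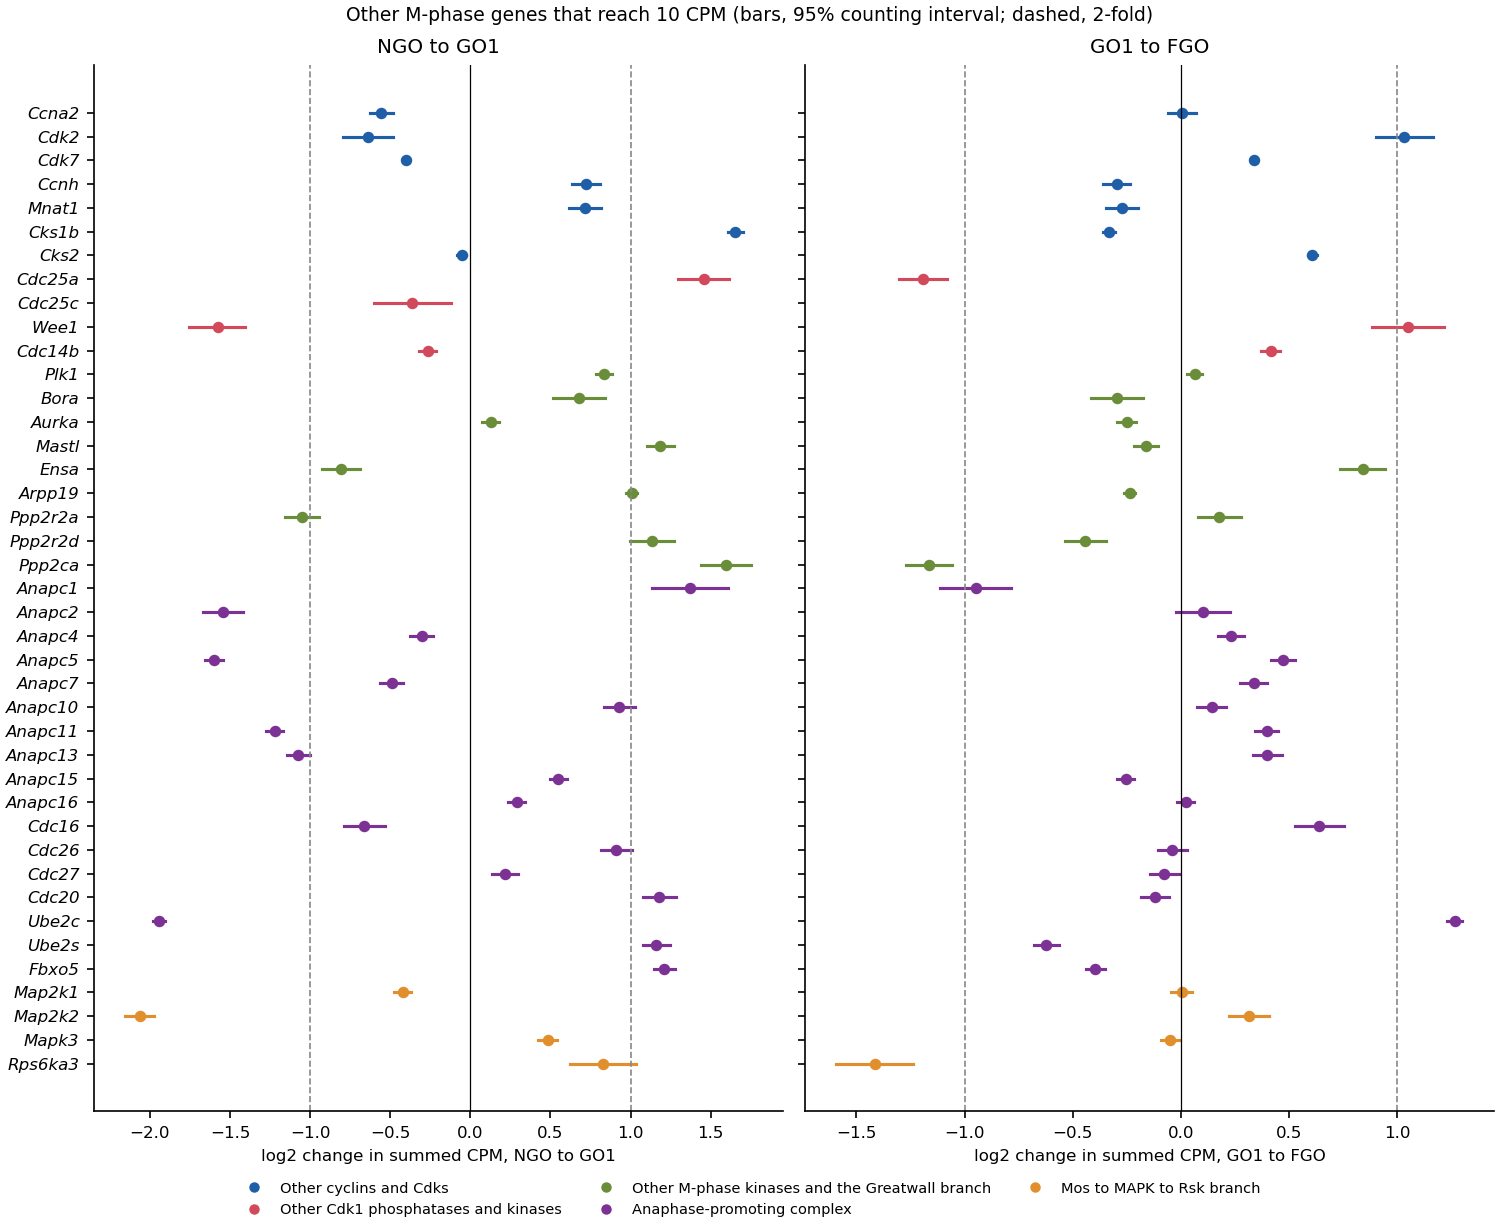
Log2 change in summed CPM (horizontal axis) of other M-phase genes that reach 10 CPM, from NGO to GO1 (left) and from GO1 to FGO (right), coloured by group. Bars are 95% counting intervals and dashed lines 2-fold. On the left 18 genes lie beyond the lines, from Map2k2 (-2.06) to Cks1b (1.65), and on the right 6.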

How the data were processed

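Single oocytes were picked by hand after washing off somatic cells, and RNA-seq was done in 4 libraries. Before deposit, the authors split the reads by cell barcode, trimmed the ends and mapped what was left with Tophat (transcriptome of mm9). Reads with the same UMI were collapsed, and the deposited values are raw counts of UMIs for each gene in each cell. All 223 cells of the table lay within the stated limits, above 3000 genes and between 20000 and 4000000 transcripts. The list of barcodes was not used, since it does not assign cells to libraries. The iscCOOL-seq libraries were not analysed here.

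The stage was taken from the names of the cells. UMIs were summed over a stage and divided by its total to give CPM. Sums carry exact Poisson intervals. A ratio of 2 sums carries an exact interval that treats the counts as a binomial split, and a change of a ratio one on the log scale. With 1 pooled sample per stage no p-value was computed, and cells were not used as replicates. PCR copies are removed by UMIs, and intervals cover counting error only. No doublet caller was run, because cells were picked singly.

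The members and gene lists were chosen with earlier results of these data known. Genes named from the list of 47 are those past the size rule from NGO to GO1 or GO1 to FGO and the 3 with the largest log2 change from GO1 to FGO in each group, and others are named beside counts. In the list, 1 gene enters the counts but is not reported here. Alternatives were DESeq2 size factors (1.42.0) and TMM factors (edgeR 4.0.16), both for scaling only, the mean over cells, leaving out the 10 deepest cells of each stage, thinning to 20000 UMIs, no minimum, 50 CPM and 1.5-fold. The medians of the 10 deepest and of the other cells, and the medians, largest steps, single M-phase calls and shares of all genes under another weight of the cells, were added after seeing the data. The code of the rule was run on simulated stage sums with planted changes larger than its limit and counting error only. Such sums lack the spread between cells, so the run checks the code and not the calls made here. Positions and sequences come from GENCODE vM1 on NCBIM37, the same build as mm9. Software was Python 3.11.15 (scipy 1.17.1, pandas 2.3.3, numpy 2.4.6, matplotlib 3.10.9) and R 4.3.3.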

Additional observations from a re-analysis of the deposited data

How the results depend on the processing

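Counts within the 10 genes and the 47 M-phase genes moved with the weight of deep cells and with the thresholds, and why deep cells differ was not tested. Against totals, DESeq2 size factors moved the median log2 change of all genes by 0.10, 0.19 and -0.15 in the first 3 steps of growth, and TMM factors by 0.16, 0.17 and -0.09 and by 0.17 from NGO to FGO, and these 12 counts stayed within 1.5 times under both, although over all genes those called lower from GO1 to GO2 went from 223 to 83 with DESeq2. Over all genes, the share called in either direction from GO1 to GO2 was 3.14% in the sums and 16.5% with the mean over cells. It was 17.7% without the deepest cells and 23.9% in thinned cells. In the same order it was 4.35%, 6.35%, 7.54% and 16% from GO2 to GO3. From GO3 to FGO it was 5.96%, 9.19%, 8.14% and 16.2%, and from GO1 to FGO 17%, 32.6%, 35.4% and 36%. For other thresholds this share is not given here. Of the 10 genes, with the mean over cells 1 was called from GO1 to GO2 (Ccnb1) and 2 from GO1 to FGO. Without the 10 deepest cells the counts were 1 (Fzr1) and 3, and in thinned cells 1 (Fzr1) and 3, with 1 also from GO2 to GO3 (Cdc25b). At 1.5-fold they were 8, 1 and 1 in the first 3 steps, 2 from GO1 to FGO and 6 from NGO to FGO. At 50 CPM no gene was called (0) from GO3 to FGO or from GO1 to FGO, since Ccnb3 stays below that level. Of the 47 M-phase genes, with the mean over cells 4 were called in the step to GO2, 2 in that to GO3 and 13 from GO1 to FGO, without the deepest cells 7, 2 and 15, and in thinned cells 4, 3 and 10, with 4 from GO3 to FGO. With no minimum CPM there were 2, 3 and 2 in the steps to GO2, GO3 and FGO, at 50 CPM 0 from GO2 to GO3 and 2 from GO1 to FGO, and at 1.5-fold 28, 5, 2, 2, 11 and 18 in the 6 comparisons. In thinned cells, a level near 1 UMI per cell cannot be read for Cdc25b, Ccnb3, Fbxo43 or Pkmyt1. Fzr1 had a mean of 0.863 UMIs per thinned cell in GO1, so its thinned calls against GO1 rest on few UMIs. No paired analysis was possible because the names of the cells carry no library or replicate number and the results come from no test. Without replicates, the spread between libraries or mice is unknown.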
